A study of Homo sapiens with 16 samples.

Results

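The human mitochondrial genome is a small circular DNA of 16569 bases, and its genes carry symbols that start with MT-. All genes with such a symbol were taken, which gave 37 of the 58302 gene identifiers in the count files. They were 13 protein-coding genes, 2 ribosomal RNA (rRNA) genes and 22 transfer RNA (tRNA) genes, and 37 of 37 lie on chromosome M of GRCh38 in the GENCODE release 44 annotation, with the same start and end in RefSeq GRCh38.p14. They were measured in HEK293, a cultured line from human embryonic kidney, in which Gemin5, an RNA-binding protein of the SMN complex, had been silenced by a small interfering RNA (siRNAG5) or not (Ctrl). RNA was sequenced from the cytoplasmic lysate (Input) and from the pooled polysomal fractions of a sucrose gradient (Polysome), which gave 4 libraries of Input Ctrl, 4 of Input siRNAG5, 4 of Polysome Ctrl and 4 of Polysome siRNAG5. The labels name the Ctrl cultures as untreated, whereas the methods describe a control siRNA, and which of them holds is not settled here. For the gradients the cells of both treatments were exposed to cycloheximide and lysed with Triton X-100, and the lysates were cleared by a spin before loading. All libraries were made with the same stranded mRNA kit, which selects RNA with a poly(A) tail, although the labels name the molecule as total RNA for Input and as polyA RNA for Polysome. Any difference that this may bring cannot be told apart from the difference between the fractions.

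Mitochondrial DNA is transcribed from both strands into long precursors, which are cut mostly at the tRNAs that lie between the other genes. The mRNAs encode core subunits of the respiratory chain complexes I, III and IV and of the ATP synthase, and are translated inside the organelle by mitochondrial ribosomes built on the rRNAs MT-RNR1 and MT-RNR2. Cycloheximide halts cytosolic ribosomes and not mitochondrial ones, and the polysomal fractions of a gradient are defined by sedimentation and not by compartment. Most human mitochondrial mRNAs carry a short poly(A) tail, MT-ND6 being the known exception, and tRNAs carry none.

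The layout of this genome limits how reads can be assigned to its genes, and the sequences below are shown because they mark these limits. Reading frames overlap by 46 bases in MT-ATP8 and MT-ATP6 (M, 8527 to 8572) and by 7 bases in MT-ND4L and MT-ND4 (M, 10760 to 10766), and each pair lies on a single mRNA. Reads inside such an overlap belong to more than 1 gene, and the authors listed ambiguous reads apart from the genes. Capitals mark the bases that both genes of a pair share, on the plus strand of GRCh38, and each run of capitals that follows the flank of 10 bases opens with the start codon of the second gene.
MT-ATP8 and MT-ATP6, start of the overlap, chrM:8517-8546: gagaaccaaaATGAACGAAAATCTGTTCGC
MT-ATP8 and MT-ATP6, end of the overlap, chrM:8553-8582: CATTGCCCCCACAATCCTAGgcctacccgc
MT-ND4L and MT-ND4, whole overlap, chrM:10750-10776: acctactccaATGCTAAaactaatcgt

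Of the 13 protein-coding genes, 6 end in DNA without a full stop codon, which is completed in the RNA by the addition of the poly(A) tail. The last 24 bases of 4 genes show the kinds of end, with the part of the stop codon that the DNA encodes in capitals. MT-ND1 encodes 2 bases of it and MT-CO3 encodes 1, whereas MT-ND5 and MT-ND6 encode 3. MT-ND5 (plus strand) and MT-ND6 (minus strand) end at neighbouring bases of chromosome M, 14148 and 14149, so that reads of MT-ND6 and antisense reads past the end of MT-ND5 can only be told apart by strand. The kit marks strand, and whether the counting used it is not given in the sources used here.
MT-ND1, chrM:4239-4262, plus strand: ctccagcattccccctcaaaccTA
MT-CO3, chrM:9967-9990, plus strand: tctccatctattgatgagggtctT
MT-ND5, chrM:14125-14148, plus strand: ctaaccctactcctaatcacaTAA
MT-ND6, chrM:14149-14172, minus strand: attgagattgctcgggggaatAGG

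Depth and other properties differed between the libraries. Reads counted on genes numbered 13347866 to 24511299 per Input library and 11145324 to 16884295 per Polysome library, of which 563650 to 1056949 and 67416 to 469172 lay on MT- genes. Reads that aligned to several places made up 4.88 to 6.04% of the listed reads in Input and 21.2 to 42.4% in Polysome. GEMIN5, the silenced gene, was lower in siRNAG5 by 1.40 on the log2 scale in Input (edgeR adjusted p = 3.11e-10) and by 1.44 in Polysome (edgeR adjusted p = 0.00477). On a principal component of all genes other than the MT- genes (the third, 9.04% of the variance), Polysome Ctrl 1, Polysome siRNAG5 1 and Polysome siRNAG5 4 scored 31.5 to 32.7, whereas the other 5 Polysome libraries scored -23.4 to -1.02, and counts of calls that use Polysome libraries are given with and without these 3. The 6 HEK293 markers (VIM, KRT8, KRT18, NEFL, NEFM, PAX2) had reads in all 4 groups. In Input Ctrl 3 and 4 the 15 liver genes summed to 129 to 148 CPM (counts-per-million, reads scaled to a common library size). They summed to 79.6 to 164 CPM in the 4 Polysome Ctrl libraries, but to 0.454 to 2.69 CPM in the other 10 libraries. APOB, APOC3, AMBP, FGA and SERPINA1 were at 0 in both siRNAG5 groups. FGB and HP were at 0 in Input siRNAG5 only, and TF and TTR in Polysome siRNAG5 only. The part of the liver genes in the results below was not tested.

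MT- genes took a similar share of the Input libraries in both treatments and a much smaller one of the Polysome libraries. The share of reads counted on genes was 5.00, 4.12, 4.55 and 4.19% in Input Ctrl 1 to 4 (mean 4.47% ± 0.406, SD, n = 4) and 4.76, 4.73, 4.31 and 4.22% in Input siRNAG5 1 to 4 (4.50% ± 0.276, SD, n = 4). It was 1.41, 0.931, 0.822 and 0.601% in Polysome Ctrl (0.941% ± 0.341, SD, n = 4) and 3.13, 0.879, 1.66 and 2.78% in Polysome siRNAG5 (2.11% ± 1.03, SD, n = 4). Input and Polysome libraries did not overlap, the 2 Input groups did, and Polysome siRNAG5 held 3 libraries above the highest Polysome Ctrl library and 1, replicate 2, within the Ctrl range. The highest shares among the Polysome libraries were those of siRNAG5 1 and 4, and the highest among the Ctrl ones was that of Ctrl 1, which are the 3 libraries named above. The place of siRNAG5 3 depended on the scaling of the libraries. As summed CPM, MT- genes had 13078, 9562, 6572 and 5304 in Polysome Ctrl 1 to 4. Polysome siRNAG5 1 to 4 had 23081, 5536, 10415 and 21637 CPM, so that replicates 2 and 3 lay within the Ctrl range. In RNA from bulk cultures, fewer cells with an RNA and less of it per cell cannot be told apart.

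**Figure D1:**
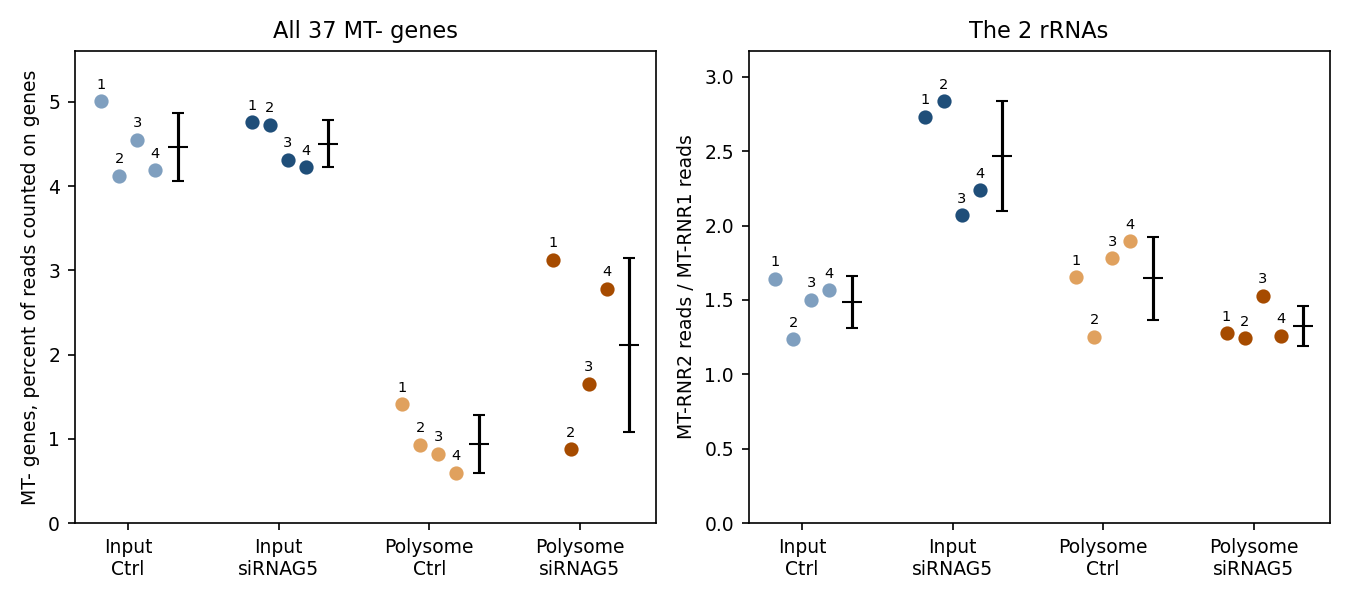
Left, percent of the reads counted on genes that lay on the 37 MT- genes. Right, reads on MT-RNR2 divided by reads on MT-RNR1. Points are libraries numbered by replicate, and the black bar beside each group of 4 is its mean ± SD. Input libraries sit at 4.12 to 5.00% and Polysome libraries at 0.601 to 3.13%, and the rRNA ratio of Input siRNAG5 (2.07 to 2.83) lies above that of Input Ctrl (1.24 to 1.64).

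In Input the mRNAs of complex IV and MT-ATP6 of the ATP synthase were the most abundant. Compared per length, as CPM per kilobase (kb) in Input Ctrl, MT-CO3 led with 18581 ± 1635 (SD, n = 4), ahead of MT-CO2 with 14023 ± 1930 and MT-ATP6 with 10513 ± 1286. MT-CO2 and MT-ATP6 overlapped between libraries, and MT-CO1 (5067 ± 548) and MT-ND3 (3952 ± 426) followed without overlap. The next 6 genes, from MT-RNR1 (3106 ± 154) through MT-RNR2, MT-CYB, MT-ND4 and MT-ND2 down to MT-ND1 (1746 ± 160), overlapped each with its neighbour. The lowest 4 stood apart from each other, with 891 ± 111 for MT-ATP8, 425 ± 53.6 for MT-ND5, 136 ± 5.62 for MT-ND4L and 70.9 ± 9.08 for MT-ND6. MT-ND6 is the only one of the 13 mRNAs encoded on the other strand. As it is the known exception without a poly(A) tail, its place need not follow its abundance in libraries selected for poly(A). In Input siRNAG5 the first 2 places were exchanged, with MT-CO2 at 16759 ± 1038 and MT-CO3 at 14929 ± 1094 CPM per kb, and these overlapped between libraries. For MT-ATP8 the overlap with the next gene, where reads were not assigned to it, takes 46 of its 207 bases, and for MT-ND4L it takes 7 of 297. Paired reads that touch both genes can be ambiguous as well, so these bases do not limit the loss. In Input Ctrl, MT-ND4L had 136 CPM per kb beside 2283 for MT-ND4 on the same mRNA. MT-ATP8 had 891 beside 10513 for MT-ATP6. The places of MT-ATP8 and MT-ND4L in the order therefore need not follow the abundance of these mRNAs. The size of the loss, and its part in the changes of these genes given below, was not tested.

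Within the reads on MT- genes, the make-up differed between Input and Polysome. MT-CO1, the catalytic core of complex IV, held 12.7 to 14.6% of these reads in the 8 Input libraries and 26.6 to 34.4% in the 8 Polysome libraries. MT-CYB, the only mitochondrially encoded subunit of complex III, held 4.56 to 6.01% and 9.51 to 13.6%. MT-CO2 went the other way, from 14.8 to 21.4% in Input to 8.22 to 11.2% in Polysome. None of the 3 overlapped between the fractions. The rRNAs together held 11.7 to 15.4% of MT- reads in Input, 8.02 to 14.7% in Polysome Ctrl, and 7.35, 9.48, 2.41 and 2.59% in Polysome siRNAG5 1 to 4. In the last group the libraries fell into a higher pair, 1 and 2, and a lower pair, 3 and 4, which is not the division by the principal component above.

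**Figure D2:**
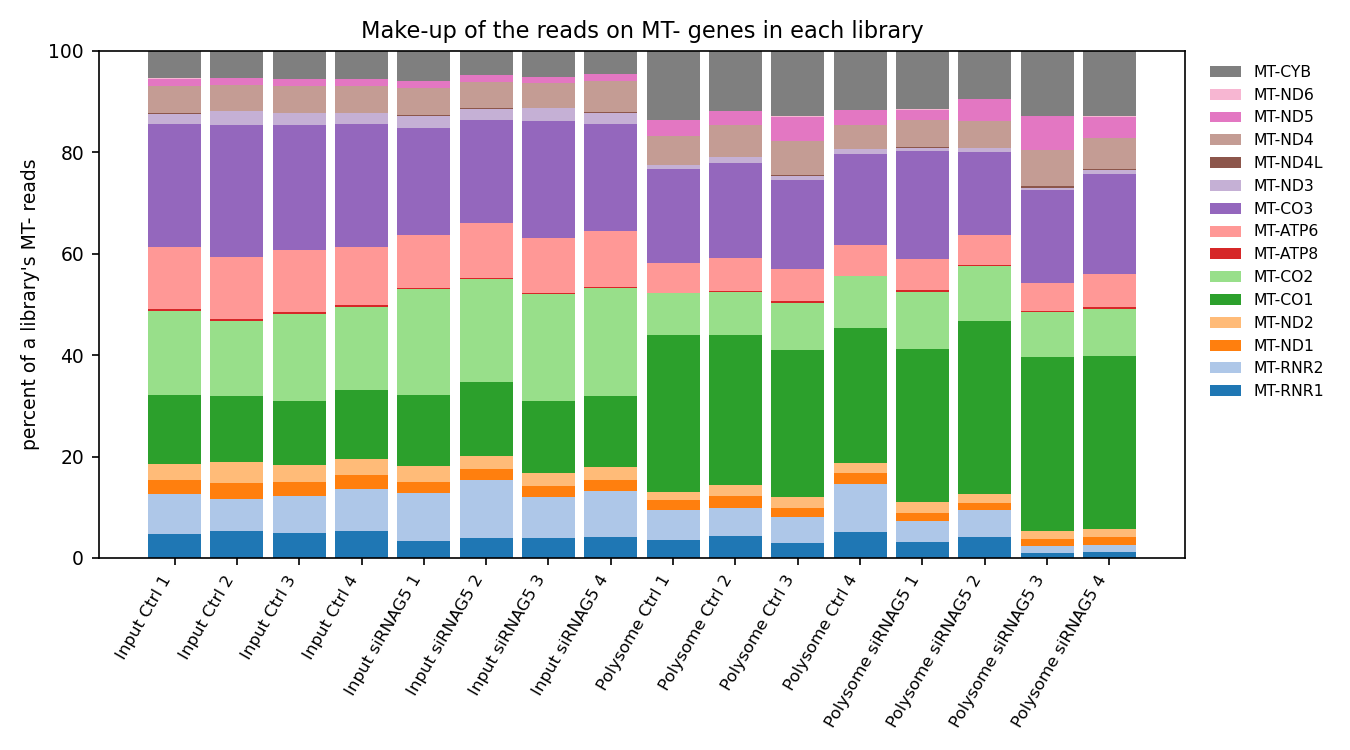
Percent of the reads on MT- genes that each of the 13 mRNAs and 2 rRNAs took, for each of the 16 libraries, stacked in genome order (the tRNAs are too few to be seen). MT-CO1 (dark green) takes 12.7 to 14.6% in Input and 26.6 to 34.4% in Polysome, and the rRNAs (blue) are smallest in Polysome siRNAG5 3 and 4.

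The comparison of Polysome with Input in Ctrl cells asked how MT- RNAs were represented in the polysomal fractions relative to the lysate. All 13 mRNAs and 2 rRNAs were lower in Polysome, with a median log2 fold change (FC) of -3.18 for the mRNAs beside -0.03 for all genes tested. A gene was called at an adjusted p under 0.05 over all genes tested and a log2 FC beyond 0.5 (edgeR's quasi-likelihood test with Benjamini-Hochberg adjustment). By this rule 15 of 15 tested MT- genes were called lower, where 18.8% of the 13666 genes tested were called lower, and in 15 of 15 the 4 Polysome libraries lay below the 4 Input libraries, which held for 23.2% of all genes.

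The size of the decrease varied among the complex I mRNAs, which encode subunits of the NADH dehydrogenase. MT-ND3 measured 1385, 1473, 1458 and 1154 CPM in Input Ctrl 1 to 4 and 85.3, 100.1, 59.4 and 55.9 CPM in Polysome Ctrl 1 to 4. This was the deepest decrease of the 15 (log2 FC -4.17 ± 0.207, SE, edgeR adjusted p = 2.67e-09), and MT-ND3 ranked 11th from the lowest of the 13666 genes tested. MT-ND5 measured 904, 684, 778 and 716 CPM in Input Ctrl and 420.1, 272, 313 and 147 CPM in Polysome Ctrl, the smallest decrease of the 15 (log2 FC -1.40 ± 0.233, SE, edgeR adjusted p = 0.000140). The other complex I mRNAs lay between them, at -3.56 for MT-ND2, -3.21 for MT-ND1, -2.61 for MT-ND4, -2.20 for MT-ND4L and -2.11 for MT-ND6.

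In complex III, MT-CYB measured 3616, 2978, 3337 and 2945 CPM in Input Ctrl and 1774, 1128, 849 and 614 CPM in Polysome Ctrl (log2 FC -1.54 ± 0.255, SE, edgeR adjusted p = 0.000134). In complex IV, MT-CO1 decreased to a similar degree (-1.60 ± 0.266, SE), whereas MT-CO2 (-3.64 ± 0.240, SE) and MT-CO3 (-3.18 ± 0.275, SE) decreased more. MT-CO1 measured 9052, 7265, 7658 and 7280 CPM in Input Ctrl and 4037, 2818, 1909 and 1411 CPM in Polysome Ctrl. The ATP synthase mRNAs MT-ATP6 (-3.75) and MT-ATP8 (-3.53), which share a transcript, were close to each other, as far as the difference between them can be read beside SEs of 0.262 and 0.250. The rRNAs MT-RNR1 (-3.13 ± 0.245, SE) and MT-RNR2 (-3.03 ± 0.234, SE) lay near the median of the mRNAs.

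Polysome Ctrl 1 was the highest and Ctrl 4 the lowest Polysome Ctrl library for MT-ND5, MT-CYB and MT-CO1, as for the MT- share as a whole. Without Polysome Ctrl 1 the median of the mRNAs was -3.41 and 15 of 15 were called lower, beside 19.8% of all genes. The 15 calls were kept in each setting tried, among them without scaling of the libraries, where the median of all genes moved to 0.51.

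In siRNAG5 cells the same comparison gave values nearer to 0 for the 13 mRNAs, a difference that is tested further on. MT- genes called lower numbered 10 of 15, where 21.2% of the 14795 genes tested were called lower, and the median of the mRNAs was -1.67. MT-ND3 was again the mRNA with the deepest decrease (log2 FC -3.65 ± 0.371, SE, edgeR adjusted p = 1.08e-05). MT-RNR2 decreased by 3.54 on the log2 scale and MT-RNR1 decreased by 2.60. The 5 genes that did not pass the test were MT-ND5 (-0.16 ± 0.301, SE), MT-ND4L (-0.45 ± 0.361), MT-CYB (-0.55 ± 0.389), MT-CO1 (-0.58 ± 0.337) and MT-ND6 (-0.99 ± 0.427), with edgeR adjusted p of 0.671, 0.315, 0.251, 0.170 and 0.0706. For these 5 the Input and Polysome libraries overlapped, and the other 10 of 15 did not, beside 27.5% of all genes with Polysome below Input throughout.

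The spread came from the Polysome side. MT-ND5 measured 702, 769.6, 573 and 681 CPM in Input siRNAG5 1 to 4 and 485, 233, 706 and 885 CPM in Polysome siRNAG5 1 to 4. MT-CO1 measured 8184, 8563, 7418 and 6930 CPM in Input siRNAG5 and 6976, 1889, 3582 and 7388 CPM in Polysome siRNAG5. In both genes Polysome siRNAG5 2 was the lowest and siRNAG5 4 the highest, and siRNAG5 4 reached or passed the level of the Input libraries. Without Polysome siRNAG5 1 and 4, the median of the 13 mRNAs was -2.88, beside -3.41 in Ctrl without Polysome Ctrl 1. In that setting 14 of the 15 mRNAs and rRNAs were called lower, beside 23.5% of all genes. The exception was MT-ND5 (-0.36, edgeR adjusted p = 0.194), and MT-CO1 then stood at -1.33 and MT-CYB at -1.42.

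**Figure D3:**
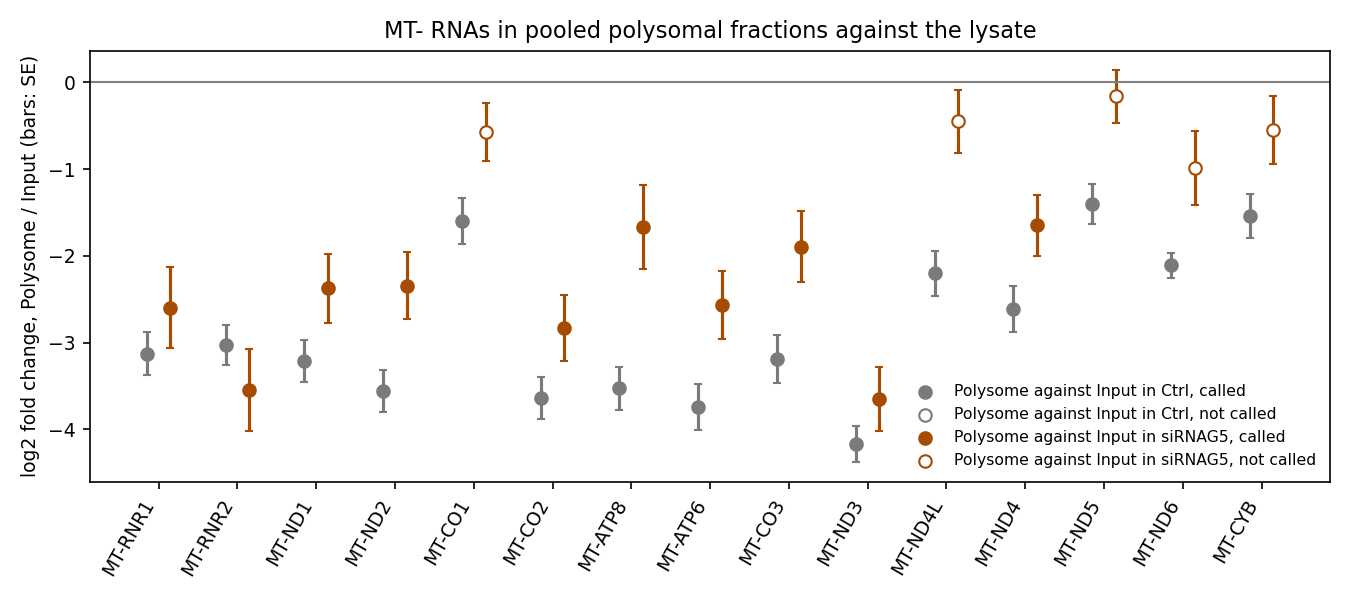
Log2 fold change of Polysome against Input for the 13 mRNAs and 2 rRNAs in genome order, in Ctrl cells (grey, 4 against 4 libraries) and siRNAG5 cells (brown, 4 against 4 libraries), with bars of 1 SE. Filled points passed the call rule. The 15 Ctrl values run from -4.17 (MT-ND3) to -1.40 (MT-ND5), and the 5 open points are siRNAG5 values.

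The order of the 15 genes was similar in both treatments, which share no library in these comparisons. Across the 15 genes Pearson's r between the log2 FC in Ctrl and in siRNAG5 was 0.872 and Spearman's rho 0.80. This is a description across genes, which share libraries within each treatment and are not independent replicates. Longer mRNAs tended to lie higher, with a rho of 0.544 in Ctrl and 0.363 in siRNAG5 between gene length and log2 FC over 13 mRNAs. Nuclear genes gave a rho of 0.0563 (11733 genes) and 0.0604 (12336 genes) with coding length. MT-ND4L and MT-ATP8 are short genes on longer shared transcripts, so that gene length is not transcript length for them.

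The comparison of siRNAG5 with Ctrl in Input asked whether the levels of MT- RNAs in the lysate differed after silencing of Gemin5. Differences were small and lay in both directions. Of 17 MT- genes tested (13 mRNAs, 2 rRNAs and the tRNA genes MT-TQ and MT-TM), 2 were called lower and 0 higher, where 6.02% of the 14134 genes tested were called lower and 10.5% higher. At an adjusted p under 0.05 without the limit on log2 FC, 9 passed, 7 of them lower and 2 higher, beside 37% of all genes in either direction. The siRNAG5 libraries lay below the Ctrl libraries throughout in 5 of the 15 mRNAs and rRNAs (MT-ND1, MT-ND6, MT-CO3, MT-ATP8 and MT-RNR1), beside 19.1% of all genes. The median of the 13 mRNAs was -0.18, beside 0.04 for all genes tested.

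The called genes were MT-ND6, a complex I subunit, and MT-ATP8, an ATP synthase subunit. MT-ND6 measured 43.0, 38.9, 34.9 and 32.0 CPM in Input Ctrl 1 to 4 and 21.4, 26.7, 26.2 and 22.0 CPM in Input siRNAG5 1 to 4. The groups did not overlap, and the log2 FC was -0.61 ± 0.0969 (SE, edgeR adjusted p = 9.10e-06), with 321 to 526 reads per library. MT-ND6 mRNA is the known exception without a poly(A) tail, and whether its reads were separated by strand is not given. Its counts in libraries selected for poly(A) therefore need not follow the level of its mRNA, and the part of this in the change was not tested. MT-ATP8 measured 204, 189, 193 and 151 CPM in Input Ctrl and 144, 133, 110.2 and 117 CPM in Input siRNAG5, again without overlap (log2 FC -0.54 ± 0.0837, SE, edgeR adjusted p = 7.41e-06). MT-ATP8 lay near the limit of 0.5, and without Input Ctrl 1 or without Input siRNAG5 3 its log2 FC was -0.50 and -0.48 and the call was lost. In the fit of all 16 libraries neither gene passed the test (adjusted p 0.230 for MT-ND6 and 0.410 for MT-ATP8, edgeR), at log2 FC of -0.63 and -0.55.

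Below the limit of 0.5, the complex I mRNAs MT-ND1 (log2 FC -0.47 ± 0.0693, SE, edgeR adjusted p = 2.92e-06) and MT-ND2 (-0.43 ± 0.0848) and the rRNA MT-RNR1 (-0.47 ± 0.0616, edgeR adjusted p = 4.71e-07) had lower values in siRNAG5. MT-ND1 measured 1834, 1729, 1643 and 1473 CPM in Input Ctrl and 1315, 1246, 1134 and 1070.0 CPM in Input siRNAG5, without overlap. MT-CO3 (-0.30) and MT-ATP6 (-0.27), the neighbours of MT-ATP8 on the precursor, also had an adjusted p under 0.05. On the other side stood MT-CO2, which lies directly before MT-ATP8 with the tRNA gene MT-TK between them. It measured 11055, 8239, 10327 and 8746 CPM in Input Ctrl and 12164, 11902, 11189 and 10596 CPM in Input siRNAG5 (log2 FC 0.27 ± 0.0711, SE, edgeR adjusted p = 0.00315), with overlap between the groups. The remaining mRNAs MT-CO1 (0.01), MT-ND4L (-0.04), MT-ND4 (-0.06), MT-ND3 (-0.07), MT-ND5 (-0.16) and MT-CYB (-0.18) did not pass the test.

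**Figure D4:**
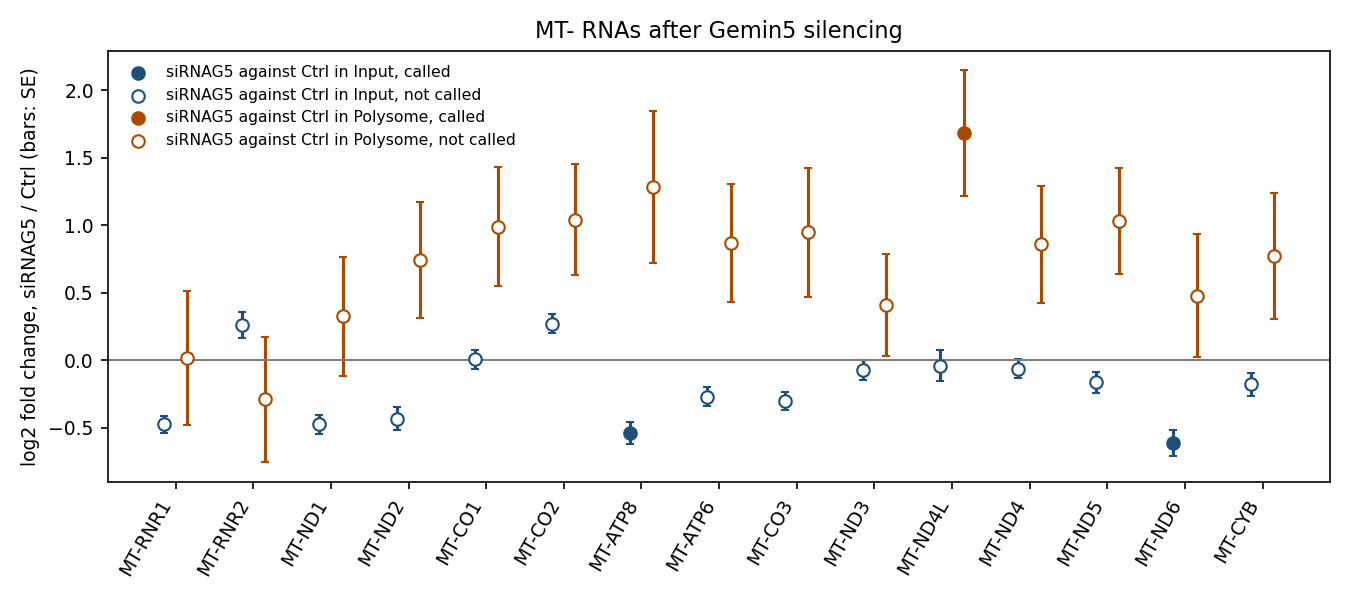
Log2 fold change of siRNAG5 against Ctrl for the 13 mRNAs and 2 rRNAs in genome order, in Input (blue) and in Polysome (brown), each from 4 against 4 libraries, with bars of 1 SE. Filled points passed the call rule, MT-ATP8 and MT-ND6 in Input and MT-ND4L in Polysome. Input values run from -0.61 to 0.27, and the SEs in Polysome are larger.

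The rRNAs lay on opposite sides of 0 in Input, both within the limit on log2 FC, and their ratio did not overlap between the treatments. MT-RNR1, the rRNA of the small mitochondrial ribosomal subunit, measured 3168, 2912, 2950 and 2821 CPM in Input Ctrl and 2002, 2363, 2070.1 and 2016 CPM in Input siRNAG5, and the groups did not overlap. MT-RNR2, the rRNA of the large subunit, measured 5206, 3602, 4425 and 4413 CPM in Input Ctrl and 5465, 6698, 4286 and 4510 CPM in Input siRNAG5, with overlap (log2 FC 0.26 ± 0.0973, SE, edgeR adjusted p = 0.0336). Reads on MT-RNR2 divided by reads on MT-RNR1 gave 1.64, 1.24, 1.50 and 1.56 in Input Ctrl and 2.73, 2.83, 2.07 and 2.24 in Input siRNAG5, which did not overlap. This ratio was formed after the values had been seen and is given without a test. In Polysome it was 1.65, 1.25, 1.78 and 1.90 in Ctrl and 1.28, 1.24, 1.53 and 1.26 in siRNAG5, which overlapped. The mean ratio was therefore higher in siRNAG5 in Input (2.47 against 1.49) and lower in Polysome (1.33 against 1.65). Both rRNAs lie next to each other on the precursor with the tRNA gene MT-TV between them, and mature rRNA has only a short tail, so that in libraries selected for poly(A) their counts need not follow their abundance.

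The comparison of siRNAG5 with Ctrl in Polysome asked the same of the polysomal fractions. All 13 mRNAs had a positive log2 FC (0.33 to 1.68, median 0.87, beside 0.03 for all genes tested), but 1 of 15 tested MT- genes was called, where 3.95% of the 14420 genes tested were called higher. At an unadjusted p under 0.05 with a log2 FC beyond 0.5, 5 of 15 were higher, beside 11.1% of all genes. In 0 of 15 did all siRNAG5 libraries lie above the Ctrl libraries, which held for 8.29% of all genes. SEs were 0.376 to 0.563 here, against 0.0616 to 0.116 for the same genes in Input.

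The called gene was MT-ND4L, a small complex I subunit encoded on the same mRNA as MT-ND4. It measured 12.4, 7.28, 11.6 and 3.30 CPM in Polysome Ctrl 1 to 4 and 32.4, 8.55, 23.8 and 44.1 CPM in Polysome siRNAG5 1 to 4, from 42 to 957 reads per library. Replicates 1, 3 and 4 of siRNAG5 lay above all Ctrl libraries and replicate 2 within their range, and the log2 FC was 1.68 ± 0.467 (SE, edgeR adjusted p = 0.0480). MT-ND4, on the same mRNA, had a log2 FC of 0.86 ± 0.433 (SE, edgeR adjusted p = 0.221). The call for MT-ND4L was lost without any 1 of Polysome Ctrl 2, Ctrl 3, Ctrl 4, siRNAG5 1, siRNAG5 3 or siRNAG5 4, where its log2 FC was 1.35 to 1.85, and with RLE size factors (adjusted p = 0.0523, edgeR).

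MT-ND5 measured 420.1, 272, 313 and 147 CPM in Polysome Ctrl and 485, 233, 706 and 885 CPM in Polysome siRNAG5 (log2 FC 1.03 ± 0.389, SE, edgeR adjusted p = 0.114). MT-CO1 measured 4037, 2818, 1909 and 1411 CPM in Polysome Ctrl and 6976, 1889, 3582 and 7388 CPM in Polysome siRNAG5 (log2 FC 0.99 ± 0.438, SE, edgeR adjusted p = 0.167). MT-CO2 (1.04 ± 0.411, SE), MT-ATP8 (1.28 ± 0.563) and MT-CO3 (0.95 ± 0.475) were of the same size. Each of these 5 had siRNAG5 libraries inside the Ctrl range. MT-CO2 measured 1075, 812, 614 and 539.5 CPM in Polysome Ctrl and 2589, 598, 923 and 2009 CPM in Polysome siRNAG5, so that siRNAG5 1 and 4 were high, siRNAG5 3 lay between the Ctrl libraries and siRNAG5 2 near the lowest of them. The rRNAs had 0.02 ± 0.497 (SE) for MT-RNR1 and -0.29 ± 0.464 for MT-RNR2, and these SEs do not place them on a side of 0. With a library left out MT-RNR1 ran from -0.746 to 0.340 and MT-RNR2 from -1.04 to 0.0067.

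Most of these values depended on the libraries that stood apart, those of MT-ND5 and MT-ND4L less so. Without Polysome Ctrl 1, siRNAG5 1 and siRNAG5 4, 0 MT- genes were called higher and 2 lower by edgeR, MT-RNR2 (log2 FC -0.98, adjusted p = 0.0210) and MT-ND6 (-0.85, adjusted p = 0.0196). Over all genes 9.02% were then called higher and 12.1% lower, so that 2 of 15 was near the background, and the median of the 13 mRNAs was 0.15. MT-ND4L then stood at 1.15 (edgeR adjusted p = 0.0562) and MT-ND5 at 0.99 (edgeR adjusted p = 0.0679). MT-CO1 stood at 0.47, MT-CO2 at 0.26, MT-CO3 at 0.15, MT-ATP6 at 0.06 and MT-ATP8 at -0.09, and MT-ND1 (-0.58), MT-ND3 (-0.49) and MT-ND2 (-0.12) were negative as well. These values rest on 3 Ctrl and 2 siRNAG5 libraries. In the 16 libraries the reads that aligned to several places were most frequent in Polysome siRNAG5 1 (42.4%), whereas siRNAG5 4 (26.6%) and Ctrl 1 (27.6%) lay among the other Polysome libraries (21.2 to 32.8%), and the part of this in the values of the MT- genes was not tested.

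**Figure D5:**
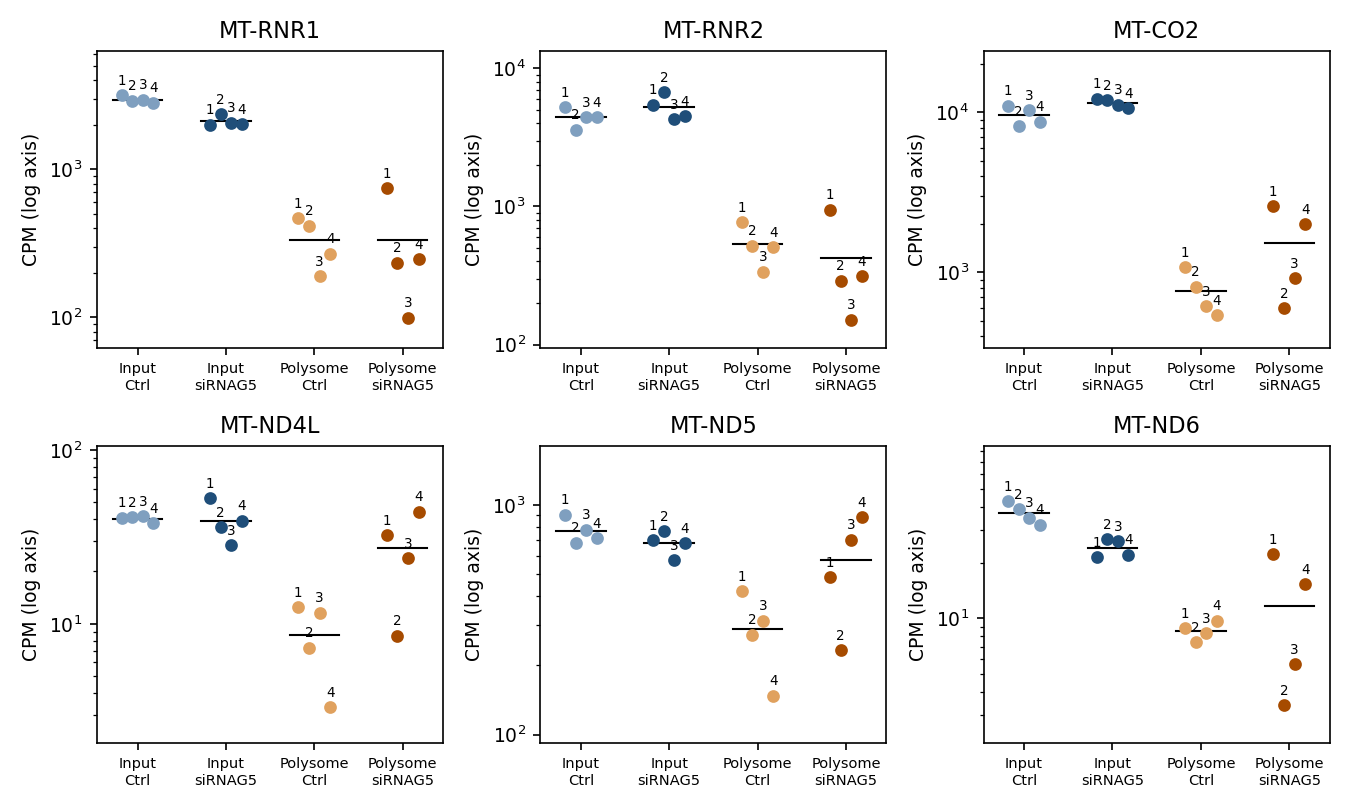
CPM on a log axis of 6 MT- genes in the 16 libraries. Points are libraries numbered by replicate and the black line is the mean of a group of 4. MT-RNR1 and MT-ND6 do not overlap between the Input groups, and in Polysome siRNAG5 the libraries spread widely, from 3.39 to 22.2 CPM for MT-ND6 and from 8.55 to 44.1 CPM for MT-ND4L.

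The difference between the fractions, that is the log2 FC of siRNAG5 against Ctrl in Polysome minus that in Input, was tested in 1 fit of the 16 libraries. By edgeR 0 of 15 MT- genes passed, where 0% of all 14958 genes did, and 7 of 15 had an unadjusted p under 0.05, all of them with a higher value in Polysome, beside 2.59% of all genes in that direction. DESeq2 called 0 of the 15 MT- genes as well, and 29 of all genes. The 13 mRNAs had differences of 0.46 (MT-ND3) to 1.80 (MT-ATP8), with a median of 1.06 beside -0.06 for all genes, and the smallest edgeR adjusted p was 0.479. MT-ATP8 (1.80 ± 0.610, SE), MT-ND4L (1.69 ± 0.514) and MT-CO3 (1.24 ± 0.518) had the highest values. The rRNAs had 0.47 ± 0.546 (SE) for MT-RNR1 and -0.57 ± 0.530 for MT-RNR2. Without the 3 Polysome libraries named above, the median of the 13 mRNAs fell to 0.31, beside -0.07 for all genes. MT-ND6, MT-ND3, MT-ND1 and MT-CO2 then had negative differences. MT-RNR2 was called with a lower value (-1.28, edgeR adjusted p = 0.0113), beside 4.3% of all genes called lower and 0.691% higher. MT-ND5 (1.13, edgeR adjusted p = 0.0646) and MT-ND4L (1.15, edgeR adjusted p = 0.103) kept larger positive differences that did not pass.

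The tRNA genes, which are 59 to 75 bases long, were hardly read. Reads on them came to 424 of the 8203200 reads on MT- genes in the 16 libraries, and 11 of 22 tRNA genes had 0 reads in all of them. A count of 0 in a library allows up to 0.122 to 0.269 CPM of the reads on genes, for counting error only. The most reads of any tRNA gene in a library were 16. Over the 16 libraries MT-TM (tRNA for methionine) had 96, MT-TQ (glutamine) 87, MT-TT (threonine) 71 and MT-TP (proline) 50 reads. Of the 8 tRNA genes on the strand of MT-ND6, 6 had a read, and of the 14 on the other strand 5 had one. Only MT-TQ and MT-TM passed the filter on low counts, in Input, with log2 FC of -0.02 ± 0.382 (SE) and 0.10 ± 0.362 for siRNAG5 against Ctrl, and neither passed the test. Reads of 100 bases are longer than a mature tRNA and the libraries were selected for poly(A), so that these counts say little of mature tRNA. Of 7 other RNAs without a poly(A) tail, RMRP, RPPH1, RN7SK and RN7SL1 were at 0 in all groups, and the 7 summed to 2.02 to 29.5 CPM per library. Nearly all of this sum came from a single gene in each group. Its mean was 17.9 of 18.0 CPM in Input Ctrl, and in Polysome Ctrl it was the only 1 of the 7 with reads.

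Copies of mitochondrial DNA in the nuclear genome can share reads with the MT- genes. By symbol 404 such copies were listed in the files, of which 21 to 25 had reads in a group, and their reads came to 1.00 to 2.08% of those on the MT- genes of a library. MTATP6P1 on chromosome 1 held most of them, with 972 ± 139 CPM in Input Ctrl and 72.2 ± 31.5 CPM in Polysome Ctrl (SD, n = 4), and its Polysome against Input log2 FC in Ctrl was -3.73, beside -3.75 for MT-ATP6. MTCO1P12 had -1.52 beside -1.60 for MT-CO1. MT-ATP6 itself had a mean of 7159.6 CPM in Input Ctrl, and MT-CO1, MT-CO3 and MT-ATP6 are uncertain by the reads that could be split between them and these copies. Reads that matched an MT- gene and a copy equally would align to several places and were not counted. The percentages above therefore do not limit the loss. Other MT- genes can be touched as well, as 13 copies were tested in Input.

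Proteins that maintain, transcribe, process and translate the mitochondrial genome are encoded in the nucleus. Of 66 such genes in lists of mtDNA replication, mitochondrial transcription, RNA processing and decay, and translation, 65 were tested in Input and 66 in Polysome. In Input 9 were lower in siRNAG5 and 0 higher, with a median log2 FC of -0.28 beside 0.04 for all genes, of which 6.02% were called lower and 10.5% higher. By list these 9 were 1 of 13 for mtDNA replication, 3 of 8 for transcription, 3 of 21 for RNA processing and decay, and 2 of 23 for translation. The 3 largest changes without overlap were those of TFB2M, a transcription factor of mitochondrial DNA (from 31.4 ± 1.65 to 17.9 ± 0.887 CPM, SD, n = 4, log2 FC -0.80), of MRRF, the mitochondrial ribosome recycling factor (-0.70), and of RNASEH1, which removes RNA primers from mitochondrial DNA (-0.69).

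In Polysome 7 of the 66 were lower and 2 higher, with a median of -0.21. MRRF decreased by 1.22 on the log2 scale, from 87.5 ± 15.8 to 36.5 ± 4.60 CPM (SD, n = 4, edgeR adjusted p = 0.00283). SLIRP, a protein that stabilizes mitochondrial mRNAs, decreased by 0.88 (edgeR adjusted p = 0.0463). RRM2B, a subunit of ribonucleotide reductase that supplies nucleotides for mitochondrial DNA, rose from 11.5 ± 1.46 to 25.4 ± 3.02 CPM (log2 FC 1.19, edgeR adjusted p = 0.00209). The other gene called higher was LRPPRC, from the list of RNA processing and decay that also holds SLIRP (log2 FC 0.62, edgeR adjusted p = 0.0340). Without the 3 Polysome libraries MRRF had -1.25, SLIRP -1.24, RRM2B 1.34 and LRPPRC 0.72. In that setting 13 of the 66 were lower and 2 higher, with a median of -0.16. Genes called lower made up 4% of all genes in Polysome, beside 7 of 66 here. Without the 3 libraries 12.1% of all genes were lower and 9.02% higher, beside 13 and 2 of 66. Polysome against Input gave 18 lower and 2 higher of 65 in Ctrl, beside 18.8 and 20.8% of all genes, and 15 lower and 4 higher of 66 in siRNAG5, beside 21.2 and 23.9%, and the lowest in Ctrl was OXA1L, which inserts mitochondrial products into the inner membrane, with -1.43. Without the libraries that stood apart, 15 were lower and 4 higher of 66 in Ctrl, beside 19.8 and 21.9% of all genes, and 15 lower and 8 higher in siRNAG5, beside 23.5 and 29.7%. By edgeR 0 of the 66 passed the test of the difference between the fractions. Without the 3 libraries 3 were higher and 1 lower, beside 0.691 and 4.3% of all genes. The decrease of OXA1L between Input and Polysome was about as large as that of MT-ND5 (-1.40) and smaller than that of MT-ND3.

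Nuclear genes for the same complexes had a negative median in Polysome, where that of the MT- mRNAs was positive. Of 71 nuclear subunits of the respiratory chain and ATP synthase, 68 were tested. In Input 9 were lower in siRNAG5 and 0 higher (median -0.31), beside 6.02% of all genes called lower, and in Polysome 4 were lower and 0 higher (median -0.52), beside 4% of all genes, a share close to that of the list. The median of the 13 MT- mRNAs in Polysome was 0.87. Of 78 mitochondrial ribosomal proteins, 76 were tested, of which 26 were lower in Input (median -0.46) and 20 in Polysome (median -0.53), with 0 higher in either, beside the same 6.02 and 4% of all genes. Without the 3 Polysome libraries 49 of 68 nuclear subunits (median -0.79) and 49 of 77 mitochondrial ribosomal proteins (median -0.70) were lower in Polysome, beside 12.1% of all genes, and the median of the 13 MT- mRNAs was 0.15. For Polysome against Input in Ctrl the nuclear subunits had a median of -0.16 and the mitochondrial ribosomal proteins of -0.13, beside -3.18 for the MT- mRNAs. Whether the lists and the MT- genes differ was not tested.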

How the data were processed

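RNA of HEK293 cells was measured in 16 libraries, 4 in each group. The authors aligned paired reads of 100 bases to GRCh38 (Ensembl release 91) with STAR 2.5.3a, used QoRTs for counting, and deposited whole-number read counts per gene, 1 library per file and not normalized. Reads without a gene, ambiguous reads and reads that aligned to several places were listed apart (0.667 to 1.33%, 4.14 to 7.41% and 4.88 to 42.4% of listed reads) and entered neither the library sizes nor a test. The quasi-likelihood test of edgeR 4.0.16 (R 4.3.3), after filterByExpr and TMM scaling, was fitted to each comparison on its own 8 libraries, and the difference between the fractions on 16. Levels are CPM over the genes kept in the 16-library fit, with its TMM factors. Fold changes and SEs come from each fit, so they can differ slightly from ratios of mean CPM.

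Calls needed an adjusted p (Benjamini-Hochberg, over all genes tested) under 0.05 together with a log2 FC beyond 0.5. All MT- mRNAs, rRNAs and the tRNA genes that passed the filter are named, and of the first 4 nuclear lists the 3 called genes with the largest log2 FC without overlap in a comparison. LRPPRC was named in addition to these. The MT- genes and all lists were chosen with earlier results of these data known. Alternatives were RLE factors, no scaling, scaling without MT- genes, no filter, DESeq2 1.42.0, the replicate number as a block, 1 fit of all libraries and each library left out. Leaving out 3 Polysome libraries together was chosen after seeing the data. The methods state 4 independent biological samples. The lowest chi-square per degree of freedom between 2 replicates was 3.17, so no library was counted as a repeat. Same-numbered libraries did not deviate together in each pair (correlations -0.605 to 0.543), so the numbers were not taken to pair them. For Polysome against Input these correlations were -0.225 to 0.227. The methods describe Input and Polysome RNA as taken from individual lysates, and whether the numbers match them is not given. This check cannot show that the libraries are unpaired. On simulated counts with 200 genes changed by a factor of 2, edgeR called 200 for siRNAG5 against Ctrl in Input (14608 genes), 147 for the same in Polysome (14212), 106 for the difference between fractions (14732), and 198 (14081) and 181 (14570) for Polysome against Input in Ctrl and siRNAG5. The simulation gave all genes of a comparison the same spread between replicates, as estimated for that comparison, and no division among the Polysome libraries. Only genes with a mean count over 50 were changed. In the data the MT- mRNAs and rRNAs had SEs of 0.376 to 0.563 for siRNAG5 against Ctrl in Polysome. There MT-CO2 did not pass at a fold of 2.06 (edgeR adjusted p = 0.128). The simulated counts therefore do not give the recovery of MT- genes. Sequences were read from GRCh38. Tables and figures were made in Python 3.11.15 with numpy 2.4.6, pandas 2.3.3, matplotlib 3.10.9 and scipy 1.17.1.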

Additional observations from a re-analysis of the deposited data

Results flagged for a closer look

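The ratio of MT-RNR2 to MT-RNR1 reads in Polysome siRNAG5 held 1 library far from the others. Replicate 3 had a ratio of 1.53, whereas replicates 1, 2 and 4 had 1.28, 1.24 and 1.26, and its gap to the nearest of them was 0.875 of the group's range, above Dixon's critical value for 4 samples. This was 1 of 72 groups examined, and chance alone flags about 1 in 20. MT-RNR1 and MT-RNR2 were also lowest in that library among the 4 (99.4 and 152 CPM).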

How the results depend on the processing

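The 15 calls of Polysome against Input in Ctrl kept their direction and passed in all settings. In Input, MT- genes called for siRNAG5 against Ctrl numbered 2, but 9 without the limit on log2 FC and 1 without scaling. The count was 0 in 1 fit of all libraries and 1 to 5 with a library left out. Of all 14134 genes, 5230 passed without the limit and 450 were called lower without scaling. In Polysome 1 was called, but 5 at an unadjusted p, 0 with RLE factors and 4 without scaling. The count was 6 of 24 tested without a filter, where tRNA genes are tested as well, and 5 in 1 fit of all libraries. It was 0 to 2 with a library left out, and 2, both lower, without the 3 libraries. Of all genes, 1599 of 14420 were called higher at an unadjusted p and 2307 of 14420 without scaling. Without a filter 825 of 27384 were higher, and in 1 fit of all libraries 1077 of 14958. The difference between the fractions gave 0, but 7 at an unadjusted p and 10 of 26 tested without a filter. In the latter setting 28 of 29591 genes were called higher. The difference gave 0 to 0 with a library left out and 1 without the 3 libraries. Polysome against Input in siRNAG5 gave 10, but 16 of 26 tested without a filter, where 3470 of 27566 genes were called lower. It gave 16 of 17 tested without Polysome siRNAG5 1 and 4 (MT-TM and MT-TT among them), and 10 to 12 with a library left out. The MT- share in Input Ctrl and siRNAG5 was 3.88 and 3.90% of all listed reads, and 3.91 and 3.90% without the rRNAs.

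Signs turned for values near 0, and without the 3 libraries or without scaling also for larger ones. For siRNAG5 against Ctrl in Input, MT-CO1 was -0.0027 with RLE factors and with DESeq2, -0.0074 in 1 fit of all libraries and -0.038 to 0.075 with a library left out. Without scaling MT-ND3 was 0.034, MT-ND4 0.044 and MT-ND4L 0.069, and with a library left out MT-ND4 was -0.116 to 0.0044 and MT-ND4L -0.220 to 0.093. In Polysome MT-RNR2 was 0.035 without scaling and -1.04 to 0.0067 with a library left out, and MT-RNR1 -0.0066 with RLE factors and with DESeq2, -0.015 in 1 fit of all libraries and -0.746 to 0.340 with a library left out. MT-ND6 was -0.037 to 0.799 there. Without the 3 libraries MT-ND6 was -0.85, MT-ND1 -0.58, MT-ND3 -0.49, MT-ND2 -0.12, MT-ATP8 -0.090 and MT-RNR1 -0.75 in Polysome, and the differences between the fractions were -0.26 for MT-ND6, -0.030 for MT-CO2, -0.44 for MT-ND3, -0.13 for MT-ND1 and -0.30 for MT-RNR1, which also had -0.30 to 0.79 with a library left out. For Polysome against Input in siRNAG5 without scaling MT-CYB was 0.13, MT-ND5 0.55, MT-CO1 0.11 and MT-ND4L 0.24, and MT-ND5 was -0.40 to 0.10 with a library left out. The causes were not tested.

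Without scaling the median of all genes moved to 0.14 in Input, 0.38 in Polysome, 0.21 for the difference, and 0.51 and 0.69 for Polysome against Input in Ctrl and siRNAG5, and genes called higher in Polysome then numbered 2307 against 207 lower. Replicate numbers were not taken to pair these libraries. With the number as a replicate block MT-RNR1 in Polysome had -0.26. MT-ND6 then passed for Polysome against Input in siRNAG5 (-1.28, edgeR adjusted p = 0.0260), and no other MT- gene changed its call. On simulated counts with 1 spread for all genes, differences of 2-fold were recovered less often in Polysome than in Input, at 4 libraries against 4. The simulated spread was the one estimated for each comparison (coefficient of variation 0.216 in Polysome and 0.0806 in Input). This order of recovery therefore follows from the setting.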
